A study of Mus musculus with 6 samples.

Results

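The genes described here are 48 members of the TGF-beta and BMP pathway. They were chosen by name, with earlier results of these data known, so shares of members beside shares of all genes are descriptive. They comprise ligands and the proteins that hold them latent, receptors, activin subunits, secreted antagonists, SMAD proteins, inhibitors inside the cell or on its surface, and target genes. All 48 had values, among 17189 genes with values in the deposited table, and all 48 were among the 13399 genes that passed the filter on low counts. RNA-seq had been made from primary articular chondrocytes, the cells of joint cartilage, of wild-type (WT) mice. The 6 libraries formed 3 groups of 2: control, a condition that the labels call aging SNL, and aging SNL with spesolimab, an antibody that blocks IL-36 receptor signalling. The labels gave no ages, doses or times and left SNL unexpanded. They did not say whether replicates were separate animals or cultures, so the spread behind each p-value is that of the deposited libraries and may be technical.

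TGF-beta and BMP ligands are secreted dimers that bring together type I and type II receptor kinases. The receptors phosphorylate SMAD proteins: Smad2 and Smad3 downstream of TGF-beta and activin, and Smad1, Smad5 and Smad9 downstream of BMPs. These join Smad4 and enter the nucleus. Smad6 and Smad7 are induced by the same signals and feed back to block them, and the Id genes are direct BMP targets. In articular cartilage TGF-beta signalling is known for maintaining the chondrocyte state, and BMPs for cartilage growth and hypertrophy.

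The libraries held 16566791 to 17312833 counts. Levels of a gene across libraries are given as CPM, the count scaled to a common library total after TMM normalization. Levels of different genes are compared only as TPM, which is also scaled by transcript length. One library differed from the rest: on the leading principal component of all genes, aging SNL replicate 1 scored 67.94 and the others -18.78 to -6.46. The 9 chondrocyte markers summed to 64639 to 78852 CPM in those others and to 13744 CPM in aging SNL replicate 1. Macrophage markers, all 10 detected, summed to 118, 155 and 159 CPM in the libraries numbered 1 and to 27, 42.2 and 39.4 CPM in those numbered 2. The 10 endothelial and mural markers summed to 297 to 669 CPM, nearly all of it Pdgfrb and Cspg4, with Cldn5 and Kdr at 0 in some library and Pecam1 at most at 1.05 CPM. Contractile fibroblast markers summed to 326 and 277 CPM in control, to 113 and 145 CPM under aging SNL and to 148 and 170 CPM after spesolimab, and 5 of 5 lay below both controls in both aging SNL libraries. Osteoblast markers summed in the same order to 400 and 300, 144 and 150, and 422 and 189 CPM, with 3 of 6 lower in both aging SNL libraries and Dmp1 at 0 in some library. Ibsp was the largest part of each osteoblast sum, at 289 and 183, 78.9 and 73.7, and 329 and 105 CPM, while Runx2 ranged only from 41.2 to 46.9 CPM. Synovial fibroblast markers summed to 1618 and 1407, 1927 and 1738, and 2070 and 1730 CPM, with 3 of 8 higher in both aging SNL libraries. Of all genes tested, 21.1% were lower and 20.9% higher in both aging SNL libraries than in both controls. In both spesolimab libraries 5 of 5 contractile and 1 of 6 osteoblast markers lay below both controls (24.6% of all genes). There 4 of 8 synovial and 5 of 9 chondrocyte markers lay above both controls (23.8% of all genes). The part of these cell types and of aging SNL replicate 1 in the results below was not tested, and in bulk RNA fewer cells of a type and less RNA per cell cannot be told apart.

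The promoters of 5 genes are shown because these genes share the pattern that the results turn on, with both control libraries highest, both aging SNL libraries lowest and both spesolimab libraries between. Id1 had the same pattern and is named only. RefSeq promoter windows of build GRCm38.p6, 300 bases long, were matched by gene identifier and symbol for 31 of the 48 members. Each stretch runs 5′ to 3′ from 200 bases before the annotated start of transcription to 10 bases after it. Capitals mark matches to the motifs searched on both strands: GGCGCC, the BMP response element known from Id1; GTCTAGAC, the palindromic SMAD element; and GTCTG, a SMAD half-element, whose reverse complement is CAGAC. GTCTAGAC holds neither of the other motifs.
Smad6, chr9:64022050-64022259, minus strand: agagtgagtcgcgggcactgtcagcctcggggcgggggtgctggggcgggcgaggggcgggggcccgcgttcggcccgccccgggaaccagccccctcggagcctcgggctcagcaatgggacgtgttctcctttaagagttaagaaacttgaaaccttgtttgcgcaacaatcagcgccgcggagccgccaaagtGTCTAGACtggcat
Smad9, chr3:54755382-54755591, plus strand: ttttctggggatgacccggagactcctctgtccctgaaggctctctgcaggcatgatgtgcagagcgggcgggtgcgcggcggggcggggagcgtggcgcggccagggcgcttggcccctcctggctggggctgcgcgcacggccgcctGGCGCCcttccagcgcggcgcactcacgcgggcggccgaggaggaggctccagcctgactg
Id3, chr4:136143622-136143831, plus strand: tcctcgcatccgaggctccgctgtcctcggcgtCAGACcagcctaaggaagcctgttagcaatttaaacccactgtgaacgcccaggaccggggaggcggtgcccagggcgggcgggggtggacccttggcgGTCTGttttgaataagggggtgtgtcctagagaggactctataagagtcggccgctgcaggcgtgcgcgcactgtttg
Id4, chr13:48260916-48261125, plus strand: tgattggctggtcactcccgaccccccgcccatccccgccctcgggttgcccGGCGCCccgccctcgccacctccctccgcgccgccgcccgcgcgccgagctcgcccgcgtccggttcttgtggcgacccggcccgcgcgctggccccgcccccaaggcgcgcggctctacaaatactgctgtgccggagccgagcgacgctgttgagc
Gdf10, chr14:33923387-33923596, plus strand: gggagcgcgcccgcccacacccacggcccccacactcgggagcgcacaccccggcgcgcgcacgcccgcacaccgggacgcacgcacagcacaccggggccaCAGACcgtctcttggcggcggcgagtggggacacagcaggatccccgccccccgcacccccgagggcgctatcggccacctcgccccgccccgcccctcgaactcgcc
In Smad6 the palindrome GTCTAGAC begins 4 bases before the start site. It occurred in 0.213% of all 32851 promoter windows and in 1 of 37 member windows, that of Smad6. Smad9 holds GGCGCC 51 bases before its start and Id4 holds it 148 bases before, and the window of Gdf10 holds it outside the stretch shown. GGCGCC occurred in 11.9% of all windows and in 12 of 37 member windows. The base composition of the windows was not compared. Windows of Bmpr1a, Bmpr2, Chrd, Grem1, Id2, Smad5, Tgfbi and Tgfbr1, members without the pattern above, also held it. Id3 holds GTCTG or its reverse complement 167 and 68 bases before its start and Gdf10 98 bases before, and 49.6% of all windows held these letters. A match describes letters in this window, not a bound site.

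In control cells the members spanned a wide range of levels. Grem1, a secreted BMP antagonist, had the highest mean per length, at 381 and 478 TPM, followed by Id3 at 364 and 341 TPM, and these means differed by less than the distance between the Grem1 libraries. Ltbp2, Tgfbr3 and Tgfbr2 came next, with means of 197, 184 and 167 TPM. Bmp4 was the BMP ligand with the highest level, at 151 and 107 TPM. Tgfb3 and Tgfb2 led the TGF-beta ligands, with means of 79.1 and 78.9 TPM that differed by less than their spread. Smad3 stood at 58.3 and 52.9 TPM and Smad2, the other SMAD of TGF-beta signalling, at 14.6 and 15.7 TPM. The lowest member was Bmp7, at 1.21 and 1.71 TPM.

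The first comparison, aging SNL against control, asks how the condition bears on these genes. The members with the lowest p were, in order, the ligand gene Gdf10, the BMP target Id3, the inhibitory SMAD Smad6 and the BMP target Id4, followed by Smad9, Tgfb3 and the BMP target Id1, and each was below both controls in both aging SNL libraries. By group mean, Gdf10 stood at 0.318 times its control level, Smad6 at 0.438, Id4 at 0.531 and Id3 at 0.603 times. Of the 48 members, 15 were lower in both aging SNL libraries than in both controls, or 31.2%, where 21.1% of all genes tested were. Another 5 were higher in both, 10.4% against 20.9% of all genes. The edgeR quasi-likelihood test on 6 libraries, with Benjamini-Hochberg adjustment at 0.05, called 0 of 13399 genes (0.0%) and so 0 members, the lowest member adjusted p being 0.108, for Gdf10. At an unadjusted p under 0.05 it held 9 members, 18.8% against 12.6% of all genes: 8 lower, where 6.15% of all genes were, and 1 higher, where 6.49% were. DESeq2 called 4 members, Gdf10, Smad6, Id3 and Id4, all lower. It called 3.32% of all genes, 1.63% lower and 1.69% higher. The median log2 fold change of the members was -0.08, against 0.013 over all genes.

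Because aging SNL replicate 1 stood apart, each aging SNL library was also compared alone, in a fit that assumes a lone library varies like the other groups. The aging SNL pair did not: 14.6% of all genes were more than 2-fold apart between its libraries. For the control and spesolimab pairs the shares were 2.68% and 3.05%. Calls from these fits, here and below, leave out that spread and describe 1 library. Without replicate 1, edgeR called 7 members and 3.43% of all genes. The 6 lower members were Gdf10, Smad6, Id1, Id3, Ltbp1 and Ltbp2 (1.61% of all genes lower) and the 1 higher was Bmp3 (1.81% higher). Without replicate 2 it called 26 members and 25.7% of all genes, with 13 members higher (13.4% of all genes) and 13 lower (12.3%). Gdf10, Smad6, Id1 and Id3 were called lower in both of these fits, which share the controls and the spread and so are not independent. The share of all genes called lower in both was not computed.

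The second comparison, spesolimab added to aging SNL, asks what the antibody does under that condition. Smad6, Smad9, Id1, Id2, Id3, Id4, Gdf10, Tgfb3, Bmp4, Chrdl1 and Smad3 were higher in both spesolimab libraries than in both aging SNL libraries, 11 of 48 members or 22.9%, against 13.5% of all genes. Bmp2, Gdf6 and Grem1 were lower in both, 6.25% of members against 13.4% of all genes. In 6 libraries edgeR called 0 members and 0.0% of genes, with a lowest member adjusted p of 0.956. At an unadjusted p under 0.05 it held 7 members, 14.6% against 2.93% of all genes: 6 higher, where 1.44% of all genes were, and 1 lower, where 1.49% were. DESeq2 called 0 members and 0.0224% of genes. Without aging SNL replicate 1, edgeR called 0 members and 0.0% of genes. Without replicate 2, so that only the library that stood apart was left, it called 27 members and 20.5% of genes, with 16 members higher (9.59% of genes) and 11 lower (10.9%). The median log2 fold change of members was -0.02, against -0.005 over all genes. The first 2 comparisons share the aging SNL libraries, so a low value there lowers one difference and raises the other.

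The last comparison set spesolimab-treated cells against control. Of the members 18 were lower in both spesolimab libraries than in both controls, 37.5% against 24.6% of all genes, and 8 were higher, 16.7% against 23.8%. In 6 libraries edgeR called 0 members and 0.0% of genes, with a lowest member adjusted p of 0.275, for Gdf10. At an unadjusted p under 0.05 it held 3 members, where 6.17% of all genes were held: Gdf10 and Smad6 lower (3.06% of genes) and Bmp3 higher (3.11%). DESeq2 called 1 member, Gdf10, lower, and 1.19% of genes (0.702% lower). Fitted on only the 4 libraries compared, edgeR called 4 members, 8.33% against 2.88% of genes: Gdf10, Ltbp2 and Id1 lower (1.37% of genes) and Bmp3 higher (1.51%). The same 4 were called in the fits without aging SNL replicate 1 (2.82% of genes, 1.34% lower and 1.49% higher) and without replicate 2 (2.8%, 1.33% and 1.47%). These fits are not further evidence for the 4 calls. A lone aging SNL library adds no spread within its group, so both fits rest on the same 4 control and spesolimab libraries.

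Control above spesolimab above aging SNL, with no overlap of any group, was the order of 6 members, 12.5%, and of 3.75% of all genes. These were Id1, Id3, Id4, Smad6, Smad9 and Gdf10. The opposite order held for 0 members and 3.69% of all genes.

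**Figure D1:**
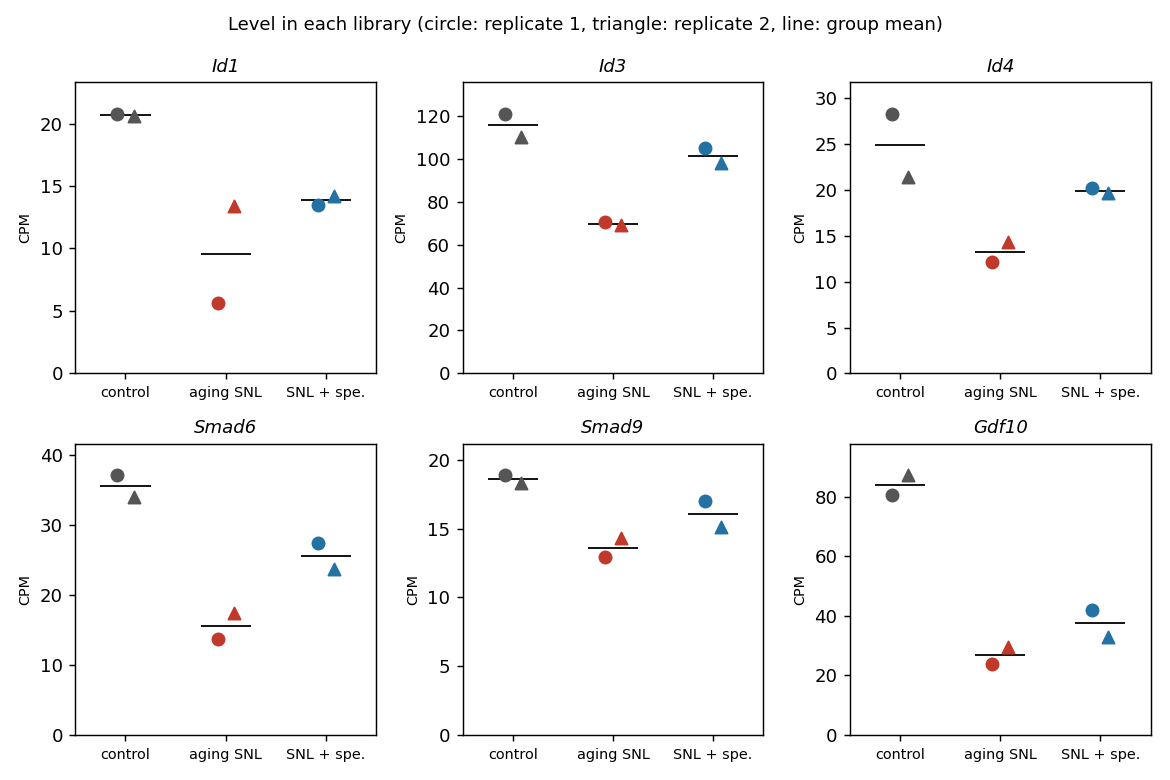
Level in CPM (vertical axis, from 0) of the 6 members whose 3 groups did not overlap, by group; circles are replicate 1, triangles replicate 2 and lines the group means. In each panel the aging SNL points lie lowest, and for Id1 aging SNL replicate 2, at 13.4 CPM, lies just under the spesolimab points at 13.5 and 14.2 CPM.

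Among the target genes, Id3, one of the inhibitors of differentiation that block basic helix-loop-helix factors, stood at 121 and 110 CPM in the controls, 70.4 and 68.9 CPM in the aging SNL pair and 105 and 97.9 CPM in the spesolimab pair. The 3 groups did not overlap, and the replicates within each lay close together. The aging SNL difference from control was -0.73 ± 0.09 on the log2 scale (± SE, as for all fold changes here), not called in 6 libraries (edgeR adjusted p = 0.155). It was called both without aging SNL replicate 1 (-0.74 ± 0.10, edgeR adjusted p = 0.0206) and without replicate 2 (-0.72 ± 0.10, adjusted p = 0.00446). Adding spesolimab gave 0.54 ± 0.09 relative to aging SNL (edgeR adjusted p = 0.956 in 6 libraries, 0.783 without replicate 1 and 0.0154 without replicate 2).

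Id1 was at 20.8 and 20.6 CPM (control), 5.65 and 13.4 CPM (aging SNL) and 13.5 and 14.2 CPM (spesolimab). Aging SNL replicate 2 was nearly level with the spesolimab libraries, and replicate 1 far below. Spesolimab against aging SNL accordingly gave 0.54 ± 0.38 in 6 libraries and 0.05 ± 0.13 with replicate 1 left out (edgeR adjusted p = 0.956 and 0.946). Against control, Id1 after spesolimab fell by 0.58 ± 0.10 on the log2 scale in the fit without aging SNL replicate 1 (edgeR adjusted p = 0.0352), a difference not called in 6 libraries (adjusted p = 0.984). Under aging SNL itself it was -1.12 ± 0.38 from control in 6 libraries, not called (edgeR adjusted p = 0.354), with calls without replicate 1 (-0.63 ± 0.12, adjusted p = 0.05, just inside the threshold) and without replicate 2 (-1.87 ± 0.15, adjusted p = 0.000509).

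Id4 was at 28.3 and 21.4 CPM in control, 12.1 and 14.3 CPM under aging SNL, and 20.2 and 19.6 CPM once spesolimab was given. The lower control library lay just above the spesolimab libraries, and both aging SNL libraries lay well below. The aging SNL difference was -0.91 ± 0.18 (edgeR adjusted p = 0.184 in 6 libraries, 0.0749 without replicate 1 and 0.0101 without replicate 2), and that of spesolimab against aging SNL was 0.59 ± 0.18 (adjusted p = 0.956). Id2, the remaining Id gene among the members, had a smaller fitted difference, with 29.4 and 28.9 CPM in the controls, 24.2 and 28.7 CPM in the aging SNL pair and 30.4 and 33.8 CPM in the spesolimab pair. Its aging SNL libraries lay below control, replicate 2 only just, at -0.14 ± 0.12 (edgeR adjusted p = 0.658), and its spesolimab libraries above control.

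Tgfbi, a matrix protein named for its induction by TGF-beta, varied most between replicates among the targets. It stood at 97.3 and 163 CPM (control), 15.8 and 71.4 CPM (aging SNL) and 58.9 and 83.4 CPM (spesolimab). Both other groups lay below both controls and overlapped each other. The difference under aging SNL was -1.58 ± 0.70 in 6 libraries (edgeR adjusted p = 0.43) and -0.86 ± 0.32 without replicate 1 (adjusted p = 0.202), and was called without replicate 2 (-3.05 ± 0.39, adjusted p = 0.00273).

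In the plot of all members by library, the 15 members that lay below both controls in both aging SNL libraries were Tgfb3, Bmp4, Gdf10, Bmpr1a, Acvr2a, Nog, Smad2, Smad9, Smad6, Smad7, Id1, Id2, Id3, Id4 and Tgfbi.

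**Figure D2:**
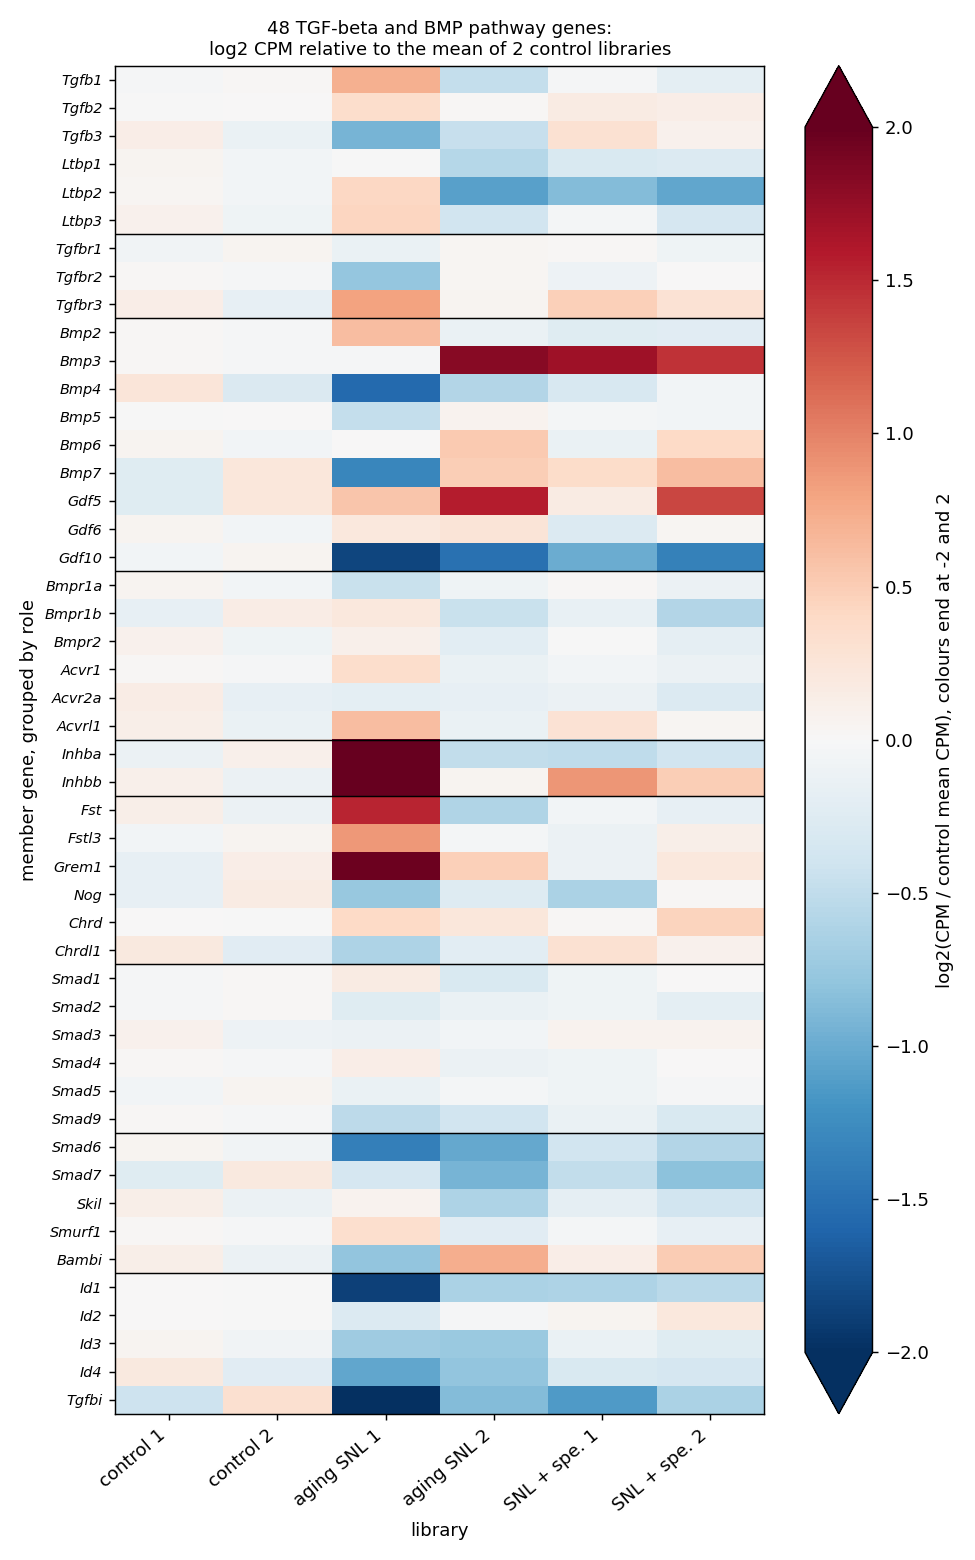
Colour gives log2 of CPM over the mean of the 2 control libraries for 48 members (rows, grouped by role between black lines) in 6 libraries (columns; spe. is spesolimab); colours end at -2 and 2. The aging SNL 1 column holds the strongest colours, with 11 members more than 2-fold from the control mean, against 5 in aging SNL 2 and 2 and 4 in the spesolimab columns.

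Of the inhibitors in or on the cell, Smad6, which blocks BMP receptors and Smad1, was at 37.1 and 33.9 CPM in control, 13.7 and 17.4 CPM under aging SNL, and 27.4 and 23.7 CPM once spesolimab was given. The 3 groups did not overlap. Under aging SNL it differed from control by -1.19 ± 0.16 (edgeR adjusted p = 0.155 in 6 libraries), a difference called without replicate 1 (-1.03 ± 0.14, adjusted p = 0.0188) and without replicate 2 (-1.37 ± 0.14, adjusted p = 0.00127). After spesolimab it was 0.71 ± 0.16 from aging SNL and -0.48 ± 0.15 from control (edgeR adjusted p = 0.956 and 0.668). Smad6 is the gene whose promoter holds GTCTAGAC at the start site, and the other promoters shown lack it. Whether the motif bears on the level of Smad6 was not tested.

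Smad7, the general inhibitory SMAD, stood at 8.29 and 11.3 CPM in the controls, 7.7 and 5.12 CPM in the aging SNL pair and 6.89 and 5.53 CPM in the spesolimab pair. All 4 libraries outside control were below both controls, and aging SNL and spesolimab overlapped. The difference was -0.61 ± 0.28 under aging SNL and -0.65 ± 0.28 after spesolimab, each against control (edgeR adjusted p = 0.442 and 0.875). Skil, a corepressor that binds SMADs, was at 19 and 16.2 CPM (control), 18.5 and 11.4 CPM (aging SNL) and 15.6 and 13.5 CPM (spesolimab). Control and aging SNL overlapped, with -0.23 ± 0.25 between them (edgeR adjusted p = 0.731).

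Smurf1, a ubiquitin ligase for SMADs and BMP receptors, ranged from 36.2 to 53.4 CPM over the 6 libraries. Bambi, a decoy receptor, had its aging SNL libraries on either side of control, with 12.2 and 10.4 CPM in control, 6.52 and 18.7 CPM under aging SNL, and 12.4 and 16.1 CPM once spesolimab was given. The aging SNL difference was 0.16 ± 0.48 in 6 libraries (edgeR adjusted p = 0.913), 0.73 ± 0.19 without replicate 1 (adjusted p = 0.0985) and -0.80 ± 0.23 without replicate 2 (adjusted p = 0.0448).

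The SMADs that carry the signal differed little in fitted level, apart from Smad9. Smad1, Smad2, Smad3, Smad4 and Smad5 had log2 fold changes of -0.19 to 0.02 under aging SNL, of -0.06 to 0.15 when spesolimab was added and of -0.14 to 0.07 between spesolimab and control. Smad3 was at 130 and 114 CPM in the controls, 112 and 117 CPM in the aging SNL pair and 128 and 128 CPM in the spesolimab pair, an aging SNL difference of -0.09 ± 0.10 (edgeR adjusted p = 0.753). Its aging SNL and control libraries overlapped. Smad9 was at 18.9 and 18.3 CPM (control), 12.9 and 14.3 CPM (aging SNL) and 17 and 15.1 CPM (spesolimab), and its groups did not overlap. Under aging SNL it differed from control by -0.45 ± 0.13 (edgeR adjusted p = 0.297 in 6 libraries, 0.185 without replicate 1 and 0.0325 without replicate 2).

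Among the BMP and GDF ligands, Gdf10, also called BMP-3b, gave the lowest p of any member in both comparisons with control. It was at 80.5 and 87.4 CPM in control, 23.7 and 29.7 CPM under aging SNL, and 42 and 33 CPM once spesolimab was given. Both controls lay far above the other 4 libraries, and spesolimab lay above aging SNL. The aging SNL difference was -1.65 ± 0.17 (edgeR adjusted p = 0.108), called without replicate 1 (-1.50 ± 0.16, adjusted p = 0.0115) and without replicate 2 (-1.83 ± 0.16, adjusted p = 0.000792). After spesolimab it was -1.16 ± 0.17 from control in 6 libraries (edgeR adjusted p = 0.275) and -1.16 ± 0.12 in the fit of 4 libraries (adjusted p = 0.0109). Relative to aging SNL it was 0.49 ± 0.17 (edgeR adjusted p = 0.956).

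Bmp4, a growth factor for cartilage, was at 128 and 88.9 CPM in the controls, 36.6 and 72.3 CPM in the aging SNL pair and 86.6 and 105 CPM in the spesolimab pair. Both aging SNL libraries lay below the other 4, replicate 1 by more. The difference was -0.99 ± 0.36 against control and 0.81 ± 0.36 when spesolimab was added (edgeR adjusted p = 0.366 and 0.956).

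Bmp3, which antagonises other BMPs, separated the libraries in another way, at 6.97 and 6.73 CPM (control), 6.77 and 24.2 CPM (aging SNL) and 22.1 and 18.5 CPM (spesolimab). Aging SNL replicate 1 was at the control level, and the remaining 3 libraries of the condition were well above it. Spesolimab against control gave 1.57 ± 0.57 in 6 libraries (edgeR adjusted p = 0.756) and was called higher in the fit of 4 libraries (1.57 ± 0.14, adjusted p = 0.00687). Aging SNL against control gave 1.18 ± 0.57 in 6 libraries and 1.82 ± 0.15 without replicate 1 (edgeR adjusted p = 0.453 and 0.00769).

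Gdf5, a ligand of joint formation, was at 19.9 and 27.5 CPM in control, 34.9 and 70.2 CPM under aging SNL, and 26.6 and 59.7 CPM once spesolimab was given. It was higher in replicate 2 of each group, and by CPM both aging SNL libraries lay above both controls. By TPM aging SNL replicate 1, at 27.5, lay between the controls, at 20.5 and 29.0. The aging SNL difference was 1.15 ± 0.50 (edgeR adjusted p = 0.421). Bmp2 was at 6.57 and 6.39 CPM in the controls, 9.88 and 5.9 CPM in the aging SNL pair and 5.49 and 5.53 CPM in the spesolimab pair. Its high library was aging SNL replicate 1, and spesolimab against aging SNL gave -0.52 ± 0.28 (edgeR adjusted p = 0.956). Gdf6, a close relative of Gdf5, was at 8.74 and 8.13 CPM (control), 9.75 and 10.1 CPM (aging SNL) and 6.95 and 8.65 CPM (spesolimab), with -0.35 ± 0.17 for the same comparison (adjusted p = 0.956). Bmp5 ranged from 31.1 to 45.5 CPM, Bmp6 from 5.2 to 8.13 CPM and Bmp7 from 0.932 to 3.53 CPM, with the lowest value of Bmp5 and of Bmp7 in aging SNL replicate 1.

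Of the TGF-beta ligands, Tgfb3 had the lowest p in the first 2 comparisons, at 126 and 104 CPM in control, 60.3 and 83.6 CPM under aging SNL, and 141 and 122 CPM once spesolimab was given. Both aging SNL libraries lay below the other 4. The difference was -0.68 ± 0.20 against control (edgeR adjusted p = 0.305) and 0.87 ± 0.20 when spesolimab was added (adjusted p = 0.956 in 6 libraries, 0.783 without replicate 1 and 0.00422 without replicate 2).

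Tgfb2 was more even, at 179 and 180 CPM in the controls, 229 and 183 CPM in the aging SNL pair and 201 and 198 CPM in the spesolimab pair. By CPM all 4 libraries outside control lay above both controls, replicate 2 of aging SNL only just, and the aging SNL difference was 0.20 ± 0.13 (edgeR adjusted p = 0.557). By TPM both aging SNL libraries, at 76.3 and 75.9, lay below both controls, at 77.7 and 80.1, so the direction depends on the scaling. Tgfb1 was at 30.5 and 31.1 CPM (control), 50.5 and 22.1 CPM (aging SNL) and 30.2 and 26.8 CPM (spesolimab). One aging SNL library was above control and the other below, and the difference was 0.24 ± 0.37 (edgeR adjusted p = 0.823).

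Ltbp2, fibrillin-like and of the latent TGF-beta binding family, stood at 606 and 569 CPM in control, 787 and 278 CPM under aging SNL, and 321 and 286 CPM once spesolimab was given. Apart from aging SNL replicate 1, the libraries of the condition lay well below control. Spesolimab against control gave -0.95 ± 0.47 in 6 libraries (edgeR adjusted p = 0.916) and was called lower in the fit of 4 libraries (-0.95 ± 0.10, adjusted p = 0.0108). Aging SNL against control gave -0.14 ± 0.46 in 6 libraries, -1.08 ± 0.12 without replicate 1 and 0.42 ± 0.12 without replicate 2 (edgeR adjusted p = 0.917, 0.0132 and 0.0417). Ltbp1 and Ltbp3, which tether latent TGF-beta in the matrix, ranged from 110 to 171 CPM and from 235 to 416 CPM, both lowest in aging SNL replicate 2.

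Receptor levels differed mainly in aging SNL replicate 1. Tgfbr1, the type I kinase of TGF-beta, was at 44.1 and 48.2 CPM in the controls, 41.8 and 47.3 CPM in the aging SNL pair and 47.1 and 43.6 CPM in the spesolimab pair. The groups overlapped, and the aging SNL difference was -0.05 ± 0.11 (edgeR adjusted p = 0.872). Tgfbr2, its type II partner, was at 353 and 343 CPM (control), 204 and 358 CPM (aging SNL) and 326 and 347 CPM (spesolimab). Aging SNL replicate 1 was the one low library (-0.31 ± 0.27, edgeR adjusted p = 0.658). Tgfbr3, the co-receptor betaglycan, was at 552 and 446 CPM in control, 871 and 516 CPM under aging SNL, and 689 and 611 CPM once spesolimab was given. Both spesolimab libraries were above both controls, with 0.38 ± 0.27 (edgeR adjusted p = 1.0), and aging SNL overlapped control (0.48 ± 0.28, adjusted p = 0.507).

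Of the BMP and activin receptors, Bmpr1a, a BMP type I receptor of cartilage, ranged from 177 to 251 CPM and was lower in both aging SNL libraries than in both controls. Bmpr1b ranged from 4.71 to 8.14 CPM, Bmpr2 from 111 to 138 CPM, Acvr1 from 58.6 to 81.9 CPM and Acvr2a from 21.2 to 28.6 CPM. Acvrl1, best known from endothelium, ranged from 16.2 to 27.1 CPM in libraries where the endothelial markers Pecam1, Cdh5 and Cldn5 were near 0.

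The activin subunits, their antagonists and Grem1 were highest in aging SNL replicate 1. Inhba, the subunit of activin A, was at 37.9 and 43.6 CPM in the controls, 180 and 29 CPM in the aging SNL pair and 28.6 and 31.4 CPM in the spesolimab pair. A single library carried the high value, and the other aging SNL library was below control. The aging SNL difference was 1.36 ± 0.78 in 6 libraries (edgeR adjusted p = 0.504), 2.14 ± 0.11 without replicate 2 (adjusted p = 0.000154) and -0.49 ± 0.13 without replicate 1 (adjusted p = 0.093). Adding spesolimab gave -1.80 ± 0.79 in 6 libraries, 0.05 ± 0.13 without replicate 1 and -2.58 ± 0.11 without replicate 2 (edgeR adjusted p = 0.956, 0.944 and 0.00018).

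Fst, the gene of the activin trap follistatin, was at 57.3 and 48.8 CPM (control), 153 and 34.9 CPM (aging SNL) and 51.4 and 47.6 CPM (spesolimab). As for Inhba, one aging SNL library was above control and the other below. The difference was 0.83 ± 0.64 in 6 libraries, -0.60 ± 0.13 without replicate 1 and 1.53 ± 0.11 without replicate 2 (edgeR adjusted p = 0.62, 0.0562 and 0.000439). Fstl3, a relative of follistatin, was at 42.6 CPM in aging SNL replicate 1 and between 21.5 and 25.5 CPM in the other 5 libraries. Inhbb, the subunit of activin B, was at 24.1 and 20.8 CPM in control, 90.3 and 23.3 CPM under aging SNL, and 41.6 and 31.5 CPM once spesolimab was given. Here both spesolimab libraries were above both controls (0.71 ± 0.61, edgeR adjusted p = 1.0), and aging SNL replicate 2 lay among the controls. Its aging SNL difference was 1.34 ± 0.61 (edgeR adjusted p = 0.436).

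Grem1 was at 248 and 305 CPM in the controls, 1077 and 384 CPM in the aging SNL pair and 254 and 320 CPM in the spesolimab pair. Both aging SNL libraries lay above the other 4, and replicate 1 far above. The difference was 1.4 ± 0.48 under aging SNL and -1.35 ± 0.48 when spesolimab was added (edgeR adjusted p = 0.356 and 0.956). Leaving out replicate 1 brought these to 0.47 ± 0.17 and -0.42 ± 0.17 (edgeR adjusted p = 0.198 and 0.783). Leaving out replicate 2 brought them to 1.96 ± 0.17 and -1.90 ± 0.17 (edgeR adjusted p = 0.000754 and 0.00102).

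Of the other BMP antagonists, Chrdl1, a relative of chordin, was at 152 and 113 CPM (control), 86.2 and 115 CPM (aging SNL) and 165 and 140 CPM (spesolimab). Both spesolimab libraries lay above both aging SNL libraries, by 0.60 ± 0.21 (edgeR adjusted p = 0.956). Chrd, the gene of chordin, ranged from 17.4 to 23.7 CPM. Nog, the gene of noggin, ranged from 5.03 to 9.48 CPM and was lower in both aging SNL libraries than in both controls.

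**Figure D3:**
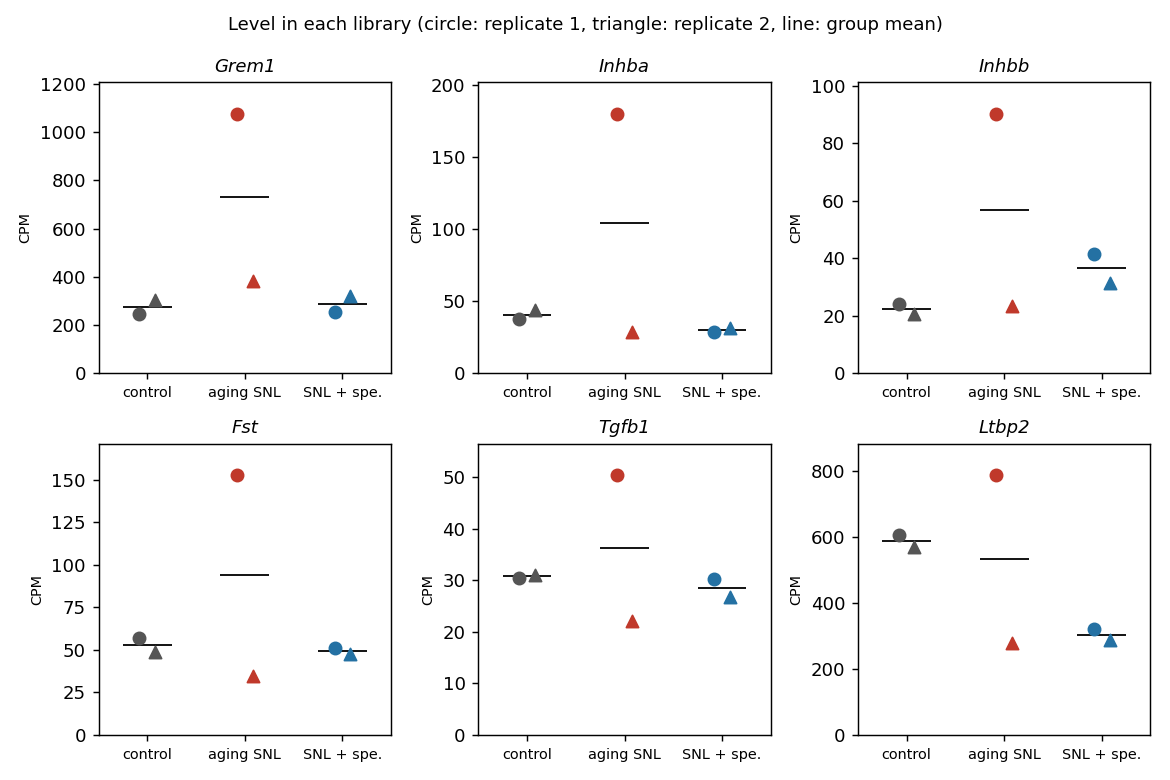
Level in CPM (vertical axis, from 0) of 6 members with a high value in aging SNL replicate 1, by group; circles are replicate 1, triangles replicate 2 and lines the group means. In each panel the single highest point is aging SNL replicate 1, and for Ltbp2 the other aging SNL library, at 278 CPM, lies with the spesolimab libraries at 321 and 286 CPM.

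Of the 48 members, 12 were more than 2-fold apart between these 2 libraries, where 14.6% of all genes were. Between the controls 0 members were, where 2.68% of all genes were, and between the spesolimab libraries 1, Gdf5, where 3.05% were. For 12 members, among them Tgfb1, Ltbp2, Inhba, Fst and Bmp2, replicate 1 lay above both controls and replicate 2 below both, the pattern of 13.9% of all genes. The reverse held for 4 members, Tgfbr2, Bmp5, Bmp7 and Bambi, 8.33% against 15.1% of all genes. All 5 target genes lay below both controls in both libraries, as did 21.1% of all genes, and Id2 did so in replicate 2 by 28.7 against 28.9 CPM.

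**Figure D4:**
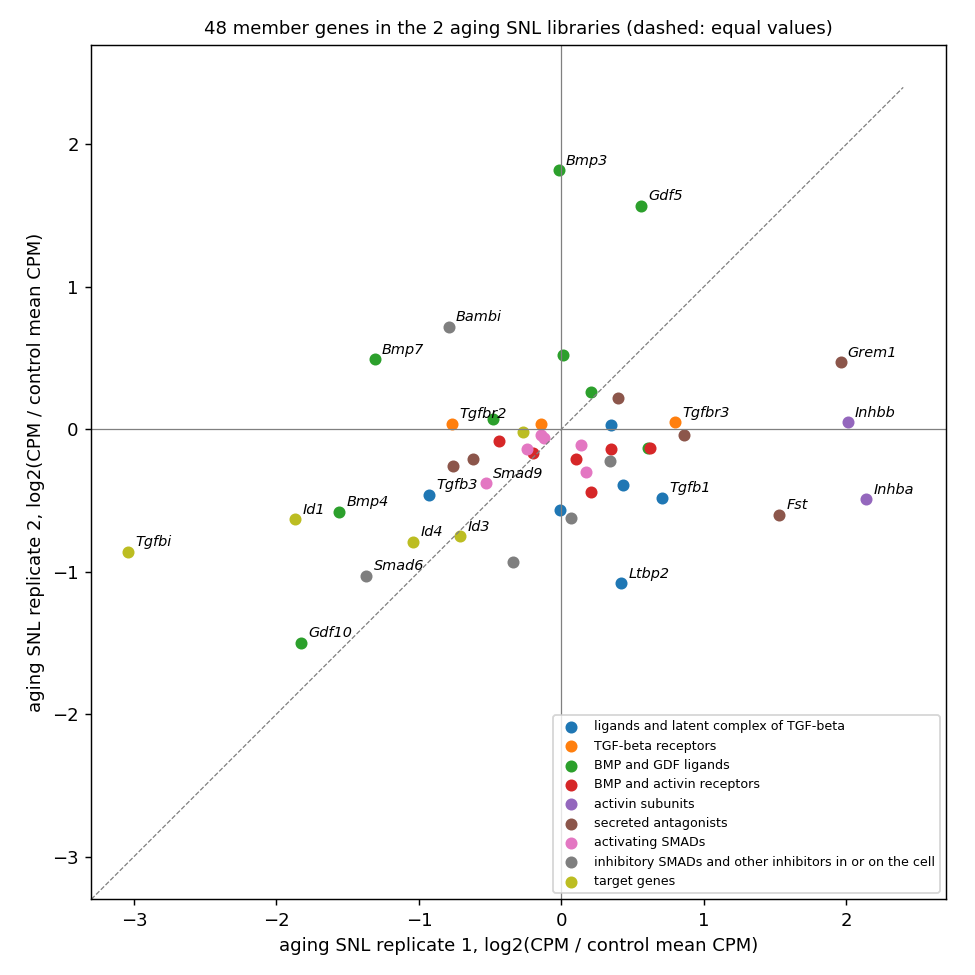
Each point is 1 of 48 members, with log2 of CPM over the control mean in aging SNL replicate 1 (horizontal) and replicate 2 (vertical), coloured by role; the dashed line marks equal values. Gdf10, Smad6, Id4 and Id3 lie in the lower left near the line, Inhba, Inhbb, Fst and Grem1 lie far to the right, and Bmp3 and Gdf5 lie high.

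Further pathway genes were read from a list of 46, of which 43 had values and 40 passed the filter. DESeq2 called 3 of the 40 under aging SNL, Bmper and Hipk2 higher and Thbs1 lower, where it called 3.32% of all genes. It called 0 of the 40 when spesolimab was added (0.0224% of all genes) and 0 between spesolimab and control (1.19%). In 6 libraries edgeR called 0 of the 40 in each comparison. At an unadjusted p under 0.05 it held 9 under aging SNL (3 lower and 6 higher; 12.6% of all genes were held), 2 when spesolimab was added (1 lower and 1 higher; 2.93% of all genes) and 2 between spesolimab and control, both higher (6.17% of all genes). Without aging SNL replicate 1 it called 5 under aging SNL, with Ccn1, Ltbp4 and Atoh8 lower and Bmper and Rgmb higher, where 3.43% of all genes were called. Without replicate 2 it called 16, 10 higher and 6 lower, where 25.7% of all genes were called. Of the 40, 3 (Ccn1, Thbs1 and Neo1) had control above spesolimab above aging SNL with no overlap, the order of 3.75% of all genes. The opposite order held for 5 (Bmper, Twsg1, Bmp1, Sostdc1 and Hipk2) and for 3.69% of all genes. These orders are by CPM, and for Bmp1 aging SNL replicate 2, at 150 CPM, lay just above the spesolimab libraries, at 149 and 148 CPM. By TPM the groups of Neo1, Twsg1 and Bmp1 overlapped, and Hipk2 was at 37.4 in replicate 2 of both aging SNL and spesolimab.

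Bmper, a secreted regulator of BMPs, was at 16.9 and 19.2 CPM in control, 38.1 and 33.2 CPM under aging SNL, and 28.1 and 21.9 CPM once spesolimab was given. The groups did not overlap, with aging SNL highest and control lowest (0.98 ± 0.16 between them, edgeR adjusted p = 0.173; 0.88 ± 0.16 without replicate 1, adjusted p = 0.044). Rgmb, a BMP co-receptor, stood at 26.7 and 27 CPM in the controls, 34.8 and 38.1 CPM in the aging SNL pair and 33.9 and 35.2 CPM in the spesolimab pair. By CPM all 4 libraries outside control were above it. The difference under aging SNL was 0.44 ± 0.09 (edgeR adjusted p = 0.211), and 0.50 ± 0.10 without replicate 1. By TPM aging SNL replicate 1, at 14.4, lay just below both controls, at 14.5 and 15.0, so its direction depends on the scaling.

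Thbs1, the gene of the TGF-beta activator thrombospondin 1, was at 16830 and 11405 CPM (control), 4440 and 6296 CPM (aging SNL) and 8862 and 9059 CPM (spesolimab). Its groups did not overlap, with control highest and aging SNL lowest, and the difference was -1.39 ± 0.31 under aging SNL (edgeR adjusted p = 0.221). Ccn2, a target of TGF-beta and of YAP, was at 2048 and 1330 CPM in control, 1101 and 1315 CPM under aging SNL, and 2614 and 1812 CPM once spesolimab was given. Both spesolimab libraries lay above both aging SNL libraries, by 0.87 ± 0.29 (edgeR adjusted p = 0.956).

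Ltbp4, of the latent TGF-beta binding family, stood at 38.5 and 40.1 CPM in control, 34 and 23.5 CPM under aging SNL, and 30.8 and 29 CPM once spesolimab was given. All 4 libraries outside control lay below it, with -0.40 ± 0.18 after spesolimab (edgeR adjusted p = 0.895).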

How the data were processed

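The authors' deposited table gave 1 row per gene for 6 libraries. Per the file headers, the expected counts are unscaled; 12.27% were not whole. The deposited TPM values are per transcript length, per the file headers. The submitters' processing notes name build GRCm39, RSEM 1.3.1, Bowtie2 2.3.4.3 and DESeq2 1.4.5, with no roles. Annotation and use of strand are not given in the sources used here. Of the columns, 15 were not used (6 of FPKM and 9 of averages). Of 22173 genes, 4984 had empty cells.

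After rounding, edgeR 4.0.16 (R 4.3.3) was run on the counts: filterByExpr (minimum count 10, minimum total 15), TMM, 1 mean per group, 3 residual degrees of freedom, and Benjamini-Hochberg adjustment over all genes tested. Standard errors are the size of the log2 fold change over the square root of its F statistic. Alternatives were DESeq2 1.42.0, limma 3.58.1 on log2 of TPM plus 1 or 0.1, other scalings and filters, each library left out, and the replicate number as a block. The edgeR step was tested only on simulated data with less spread than the 6 libraries and no library standing apart. That test does not measure power or error in these data. Members, lists and motifs were chosen with earlier results of these data known. Values per library and tests are given for 20 members always named and the 12, 12 and 6 with the lowest p in the 3 comparisons (29 members in all), with 5 other pathway genes by a like rule; the rest are given by range. Genes outside that rule were named after their values were seen. Some genes of the wider pathway list are not reported here.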

Additional observations from a re-analysis of the deposited data

How the results depend on the processing

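Of 918 single-gene values recomputed under alternatives that kept all libraries of the comparison, 907 kept their side of the threshold and 0 were counted as reversed. DESeq2 added 7 calls and the fit of 4 libraries 4. A sign change was counted as a reversal only where a fit called the gene or both values exceeded their standard errors. Smaller sign changes remain among the 907, so that number does not count kept directions. DESeq2 called 445, 3 and 160 genes (aging SNL against control, spesolimab added, spesolimab against control) and 4, 0 and 1 members. The 4-library fit called 382 genes and 4 members for spesolimab against control. The member median moved to -0.14 under upper-quartile scaling for aging SNL, and on TPM plus 1 to -0.29, 0.13 and -0.17 (plus 0.1: -0.32, 0.14 and -0.18); TPM scaling moved the median of all genes too, to -0.22 and 0.14 in the first 2 comparisons, and the members' median relative to it was -0.07 and -0.01. The cause of these differences was not tested.

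With 1 library left out, calls ranged from 0 to 3525, 0 to 2810 and 0 to 385 genes and from 0 to 26, 0 to 27 and 0 to 4 members, and the member median from -0.15 to -0.02, -0.02 to 0.10 and -0.10 to -0.06. The highest counts came without aging SNL replicate 2 (without either replicate for spesolimab against control). Reversals came only with an aging SNL library left out, with these log2 ranges over the 6 fits that each leave out 1 library: Inhba -0.49 to 2.14, Fst -0.60 to 1.53, Bambi -0.80 to 0.73, Ltbp2 -1.08 to 0.42 (against control); Fst -1.63 to 0.50, Inhbb -1.30 to 0.65, Ltbp2 -1.37 to 0.13 (spesolimab added).

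The replicate number as a block called 0 genes and 0 members in each comparison and changed no call (lowest member adjusted p = 0.177, 0.874 and 0.386). Replicate differences correlated between groups over genes (0.246, 0.419 and 0.286), a hint from the data that numbers are shared, which the labels do not state. Depth limits Bmp7 most, with 15 counts in its lowest library. The biological coefficient of variation was 0.205 in 6 libraries and 0.0925 without either aging SNL library.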
